A study of Mus musculus with 4 samples.

Results

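The mitochondrial ribosomal protein genes described here are the 78 rows of the deposited table, of 20837 in all, that are listed as protein coding and whose symbol starts with Mrpl or Mrps followed by a number. By name, 49 belong to the large subunit (Mrpl) and 29 to the small subunit (Mrps). RNA was sequenced from Treg cells of mouse spleen, the CD4 T cells that carry the transcription factor Foxp3 and hold immune responses in check. The WT group (2 libraries) has the genotype Foxp3YFP-CreKmt2d+/+ and the cKO group (2 libraries) the genotype Foxp3YFP-CreKmt2dfl/fl. Both groups carry the Foxp3YFP-Cre allele, so the Cre recombinase is driven by Foxp3, and a floxed Kmt2d is deleted in cells that express or once expressed it. Age and sex are not stated for these mice, and the labels do not say whether libraries of a group came from separate animals, so the p-values rest on variation among libraries that could be purely technical. The extraction text of the labels describes cultured macrophages of a different knockout and goes against the tissue, cell type and genotype fields followed here.

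Mitochondria carry their own ribosome, which makes the few proteins encoded by mitochondrial DNA, all of them core subunits of the respiratory chain and the ATP synthase. Its RNAs come from the mitochondrial genome, but its proteins are encoded in the nucleus, made in the cytosol and imported. The small subunit decodes the messenger RNA and the large subunit joins amino acids and passes the new chain through an exit tunnel to the inner membrane. Some of the proteins have bacterial counterparts, while others exist only in mitochondria. In Treg cells respiration is a main source of energy, which is why this machinery is of interest there.

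The names and the structure differ for 3 members. Mrps18a and Mrps30 lie in the large subunit of the solved structures, and Mrps36 is a subunit of the 2-oxoglutarate dehydrogenase complex and lies in neither. By place in the structure the members divide into 51 large, 26 small and 1 outside. By their systematic names, 46 have a bacterial counterpart and 31 are specific to mitochondria.

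Among the members called higher, 2 are separated by a short stretch from a gene on the opposite strand that also changed, and 1 further pair joins a large and a small subunit gene. These stretches are shown because the neighbours' values are compared further on. The sequences were read from the RefSeq promoter windows of build GRCm38.p6, the assembly also known as mm10, and are written in the direction of the plus strand between the annotated gene starts. Capitals mark the letters CCGGAAG or GGGCGG, the cores bound by ETS factors and by SP1, or their reverse complements. The first lies at chr6:125192101-125192199, the second at chr8:71464708-71464925 and the third at chr7:78783090-78783130. Last is the upstream 250 bases of Mrpl42, the member with the smallest p, at chr10:95501950-95502199 on the minus strand. There capitals also mark ATTGG, the reverse complement of CCAAT.
Ncapd2 to Mrpl51: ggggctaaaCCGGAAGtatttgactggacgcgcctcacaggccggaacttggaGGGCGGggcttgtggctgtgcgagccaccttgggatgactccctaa
Abhd8 to Mrpl34: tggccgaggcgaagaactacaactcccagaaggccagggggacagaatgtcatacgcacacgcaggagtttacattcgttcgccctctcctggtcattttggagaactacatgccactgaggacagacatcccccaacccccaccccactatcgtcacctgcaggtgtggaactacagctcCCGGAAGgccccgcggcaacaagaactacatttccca
Mrpl46 to Mrps11: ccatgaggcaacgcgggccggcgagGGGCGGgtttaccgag
Mrpl42 upstream: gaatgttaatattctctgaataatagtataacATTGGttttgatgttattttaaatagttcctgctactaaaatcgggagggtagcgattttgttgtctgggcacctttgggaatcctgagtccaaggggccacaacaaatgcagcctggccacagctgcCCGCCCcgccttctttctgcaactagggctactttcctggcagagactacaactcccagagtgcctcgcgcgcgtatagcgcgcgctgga

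A promoter window of 300 bases, 250 before to 50 after the gene start, was found for 69 members, 14 of them called higher. ETS letters (CCGGAAG, both strands) were present in 25 of the 69 windows, or 36.2%, beside 17.8% of the 10990 windows of tested genes and 8.86% of all 32851 windows. YY1 letters (AAGATGGC, both strands) were in 12, or 17.4%, beside 4.61% and 2.75%. NRF1 letters (GCGCATGC, both strands) were in 8, or 11.6%, beside 5.15% and 2.71%, and 7 of these 8 were large subunit genes. SP1 letters (GGGCGG, both strands) were in 49.3%, beside 60.9% of the windows of tested genes, and CCAAT letters (CCAAT, both strands) in 39.1%, beside 38.9%. ETS letters stood in 14 of 43 large and 11 of 26 small subunit windows. Among the 14 called members they stood in 6, NRF1 letters in 1 and YY1 letters in 2. A match describes letters in a window and is not a binding site.

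Total counts ran from 28442416 to 35560491 per library, so a gene with no read could still lie at 0.0844 to 0.105 CPM (the level of 3 counts). The members had 180 to 3080 counts in each library, and all 78 passed the filter on low counts. Kmt2d itself, counted over the whole gene and therefore no check of the deletion, measured 721 and 704 CPM (counts scaled to library size) in WT and 836 and 793 CPM in cKO (log2 fold change 0.19, edgeR adjusted p = 0.0375, a call lost in each fit without 1 library and with RLE scaling). Foxp3 measured 278 and 250 CPM in WT and 170 and 180 CPM in cKO. Of 10 T cell markers 7 fell (edgeR adjusted p under 0.05), with summed levels of 4739 to 4899 CPM in WT and 3831 to 4183 CPM in cKO, and fewer cells of a type cannot be told apart from less RNA per cell in such bulk samples. Of 6 Treg markers 1 rose and 3 fell, and of 6 B cell markers 1 rose. All 10 markers of cycling cells rose, from summed levels of 460 to 561 CPM in WT to 942 to 1046 CPM in cKO. All 10 neutrophil markers rose as well, from 61.6 to 175 CPM up to 557 to 1249 CPM, and all 6 markers of basophils and mast cells, from 1.56 to 3.61 CPM up to 19.4 to 33.9 CPM. None of these markers was at 0 in any library. Of 8 macrophage markers none passed in either direction by edgeR or limma-voom (0 higher and 2 lower at an unadjusted p under 0.05 by both; DESeq2 called 3 lower), and their summed level was 295 to 579 CPM over the 4 libraries. The part of these cell types in the results below was not tested.

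Mitoribosomal protein genes were expressed at moderate levels, with mean levels of 6.20 to 85.9 CPM and a median of 22.3 CPM. Per kilobase of RefSeq-matched exon, merged over the transcripts of a gene, the members ranged from 1.84 to 73.5 CPM per kb. This is a 39.9-fold span, although most of these proteins are present in a single copy per ribosome. Merged exons can exceed the transcript a cell makes, so this scale compares genes only roughly. For Mrps26 they reach 4278 bases, more than its RefSeq span from 130563757 to 130565394. The highest were Mrpl52, at 71.1 and 74.4 CPM per kb in WT and 76.4 and 72.1 CPM per kb in cKO, Mrpl24 at a mean of 70.1 CPM per kb and Mrpl33 at 61.8 CPM per kb, all of the large subunit. The lowest were Mrpl47, which encodes the counterpart of bacterial L29 at the exit tunnel, at a mean of 1.84 CPM per kb, Mrps25 at 2.25 CPM per kb and Mrpl17 at 2.60 CPM per kb. All 3 have long merged exons, 3364, 6073 and 7300 bases, beside a median of 1284 bases over the members. Those of Mrpl17 nearly fill its locus, from 105803782 to 105811087, and a single transcript can be shorter. The part of these lengths in the low values was not tested. The median was 17.3 CPM per kb for the large and 12.9 CPM per kb for the small subunit genes. None of these 6 extremes differed between the groups by the test below (adjusted p 0.433 to 0.971).

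Summed over all 78 members, expression was 1816 and 1913 CPM in WT and 2006 and 1956 CPM in cKO. Both cKO libraries lay above both WT libraries, by 6.23% on the means. The libraries stood in the same order as for the summed cycling markers (WT 1 lowest, then WT 2, cKO 2 and cKO 1). Summed neutrophil, basophil and B cell markers were also higher in both cKO libraries, but highest in cKO 2 (1249, 33.9 and 232 CPM). A link of the members to any of these markers was not tested. The members took 0.177% to 0.205% of all counts. The large subunit genes summed to 1196 and 1256 CPM in WT and 1313 and 1277 CPM in cKO, and the small subunit genes to 620 and 657 CPM in WT and 692 and 679 CPM in cKO.

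**Figure D1:**
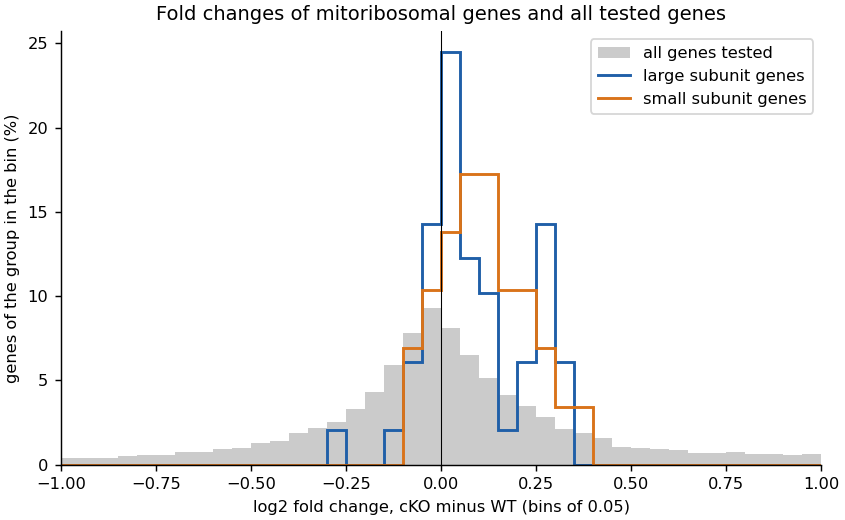
Share of genes (y axis, percent of the group) in each bin of 0.05 of the log2 fold change, cKO minus WT (x axis, shown from -1 to 1), for the 13861 genes tested (grey), 49 large subunit genes (blue line) and 29 small subunit genes (orange line). The mitoribosomal genes lie between -0.25 and 0.36, with medians of 0.07 and 0.10, inside the much wider spread of all genes.

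The comparison asks how the transcripts of the mitochondrial ribosome differ when Kmt2d, a methyltransferase of histone H3 lysine 4, is lost in Foxp3-expressing cells. Of 78 members, 14 rose, 0 fell and 64 did not pass (edgeR quasi-likelihood test, adjusted p under 0.05). Over all 13861 genes tested, 16.5% rose and 15.1% fell, or 31.6% in either direction. The 17.9% of members that rose is therefore near the share among all genes, and none fell. At an unadjusted p under 0.05 the test gave 21 members higher and 1 lower. DESeq2 called 0 higher and 0 lower (2 and 0 at an unadjusted p under 0.05), and limma-voom 14 and 0 (21 and 1). Of all genes DESeq2 called 9.05% higher and a somewhat larger share lower. For limma-voom 16.5% of all genes were higher and a somewhat smaller share lower. Shares of all genes at an unadjusted p under 0.05 are not given, so counts at that level have no background here.

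The sizes were small. Log2 fold changes of the members ran from -0.25 to 0.36 with a median of 0.08, beside a median of 0.0003 over all genes, and 61 of 78 were above 0, beside 50.0% of all genes. The 14 called members rose by 14.9% to 28.8%. The 95% interval of the fold change lay wholly within 1.5-fold in either direction for 77 of 78 members, beside 58.1% of all genes tested, and within 2-fold for all 78. In 41 members both cKO libraries lay above both WT libraries and in 2 below, 52.6% of the members in the first case, beside 35.1% and 30.9% of all genes.

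**Figure D2:**
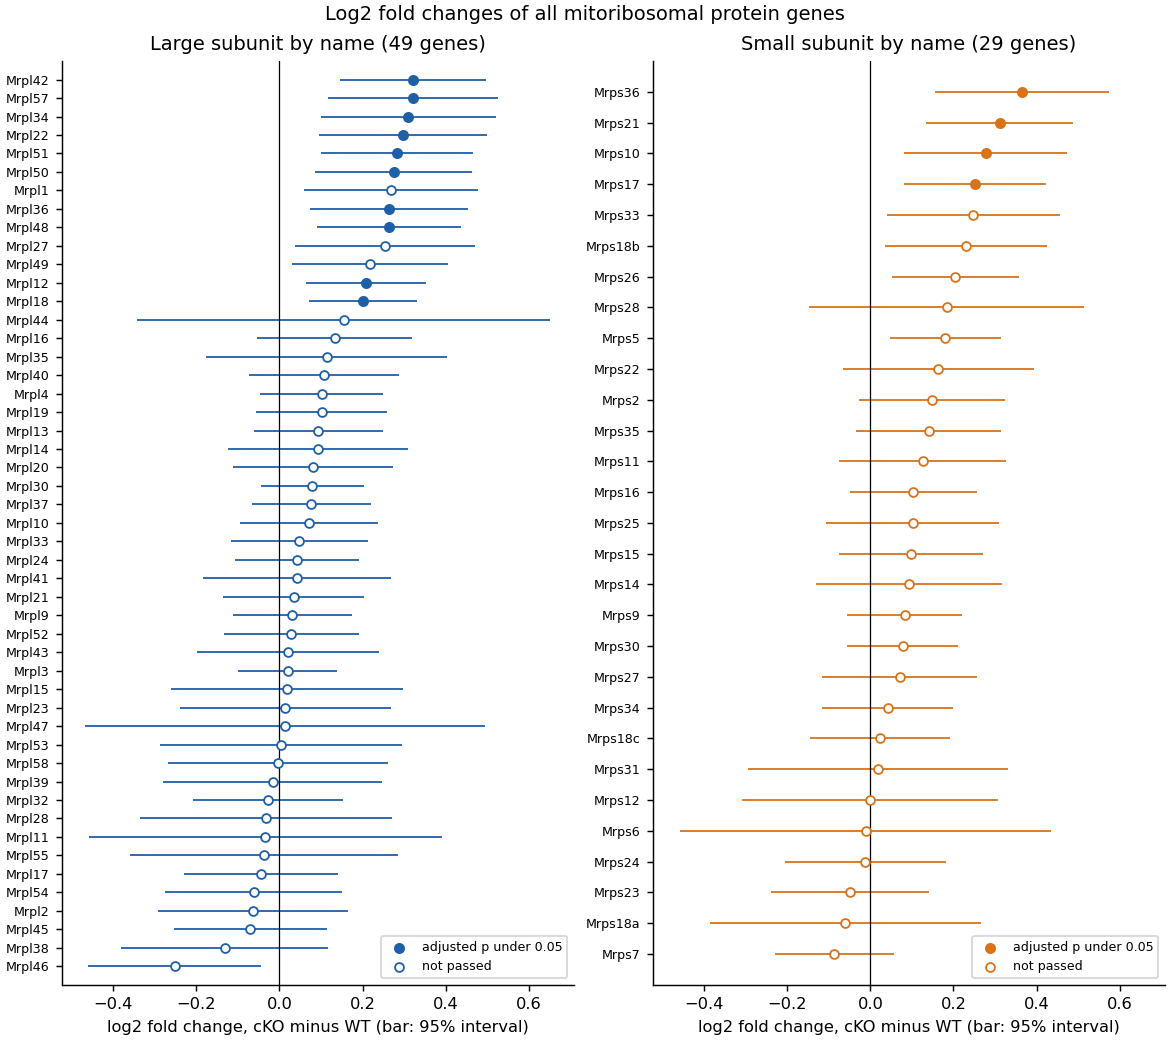
Log2 fold change, cKO minus WT, with its 95% interval (x axis) for each of the 49 large subunit genes (left) and 29 small subunit genes (right) by name, sorted by size. Filled points passed adjusted p under 0.05 (10 large and 4 small), open points did not. Most intervals cross 0, and Mrpl46 is the one member whose interval lies wholly below it.

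Most calls were lost when a library was left out, while the fold changes of the 14 called members stayed above 0, between 0.17 and 0.41 on the log2 scale. In such a fit 1 group has a single library, which is assumed to vary like the other group's. Fewer genes were called over the whole table in each of these fits too, so lost calls were not limited to the members. With WT 1, cKO 1 or cKO 2 left out, no member was called by edgeR (5, 6 and 13 higher and 0, 0 and 1 lower at an unadjusted p under 0.05). Without WT 2, Mrpl42 and Mrps21 alone remained. Members with a log2 fold change above 0 numbered 50 and 70 when WT 1 and WT 2 were left out in turn, and 49 and 67 for cKO 1 and cKO 2. WT 1 was the lowest of the 4 libraries for 52 members, and cKO 1 the highest for 40, counted over the members alone.

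**Figure D3:**
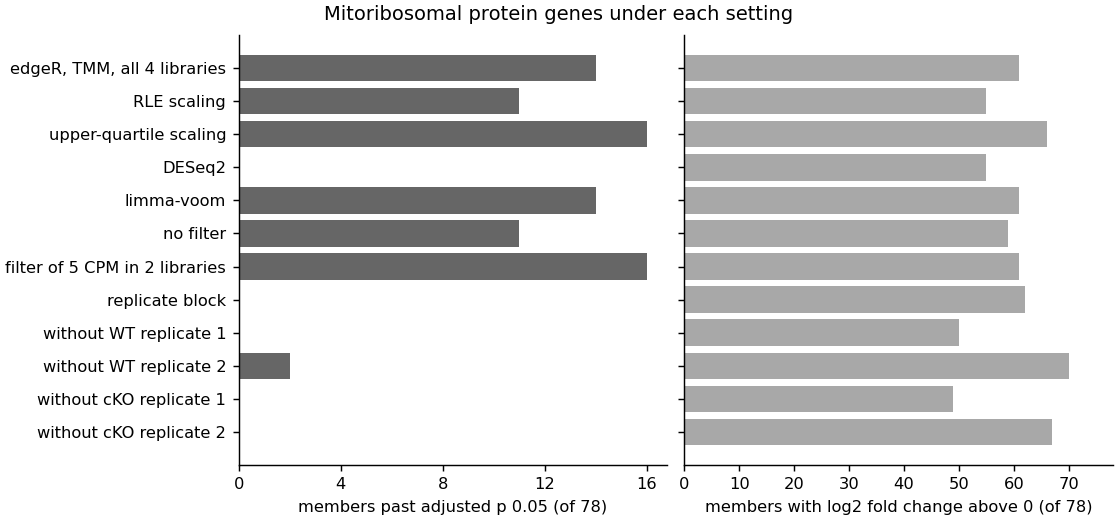
Members past adjusted p 0.05 (left, of 78) and members with a log2 fold change above 0 (right, of 78) for the edgeR fit to all 4 libraries and 11 alternatives, one bar a setting, without the crossed replicate block (21 higher and 1 lower). Among the settings drawn the count called runs from 0 to 16, with 0 for DESeq2, the replicate block and 3 of the 4 fits that leave out a library, while 49 to 70 members stay above 0.

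Large subunit genes rose in 10 of 49 cases and small subunit genes in 4 of 29, 20.4% and 13.8%, with 0 lower in either (1 large and 0 small at an unadjusted p under 0.05 by edgeR, 0 and 0 by DESeq2, 1 and 0 by limma-voom). Both shares that rose are near the 16.5% of all genes tested that rose, beside 15.1% that fell. The median log2 fold change was 0.07 for the large and 0.10 for the small subunit, so that the subunit with fewer calls had the higher median. Of the large subunit genes 37 of 49 and of the small subunit genes 24 of 29 lay above 0, beside 50.0% of all genes tested. Placed by structure, 10 of 51 large and 3 of 26 small subunit genes rose, with medians of 0.07 and 0.10. These are descriptions, and the difference between subunits was not tested.

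The balance of the subunits within each library does not depend on library scaling. The ratio of summed counts per kilobase, large over small, was 2.07 and 1.99 in WT and 1.98 and 1.99 in cKO. On this scale WT 1 stood higher and the other libraries lay close together. By structure the ratio was 2.36 and 2.29 in WT and 2.28 and 2.27 in cKO. From summed CPM, without the division by length, it was 1.93 and 1.91 in WT and 1.90 and 1.88 in cKO, with both WT libraries above both cKO libraries by a small margin.

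By ancestry, 8 of 46 members with a bacterial counterpart and 5 of 31 specific to mitochondria rose, with medians of 0.09 and 0.08. In the large subunit 5 of 30 and 5 of 21 rose. These shares, and those of the small groups that follow, stand beside the 16.5% of all genes that rose, and groups of so few genes do not set them apart from it. In the small subunit 3 of 16 with a bacterial counterpart rose and 0 of 10 specific to mitochondria, although 9 of these 10 lay above 0 (3 higher and 0 lower at an unadjusted p under 0.05 by edgeR, 3 and 0 by limma-voom, 0 and 0 by DESeq2). Around the exit tunnel 1 of 8 genes rose (median 0.01), in the central protuberance, the crest of the large subunit that faces the small one, 2 of 8 (median 0.05), and in the stalk that recruits translation factors 1 of 3 (median 0.07). In the group at the decoding site and messenger RNA channel 0 of 5 rose and 0 fell (1 higher and 0 lower at an unadjusted p under 0.05 by edgeR and by limma-voom, 0 and 0 by DESeq2).

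Among the large subunit genes that rose, Mrpl42 (gene number 67270, chromosome 10, 95480805 to 95501949), which encodes a protein specific to mitochondria, measured 21.8 and 23.6 CPM in WT and 28.5 and 28.2 CPM in cKO. The groups did not overlap, and the log2 fold change was 0.32 (SE 0.07, edgeR adjusted p = 0.0208). Mrpl57 (gene number 67840, chromosome 14, 57826228 to 57829087), also without a bacterial counterpart, measured 13.8 and 15.1 CPM in WT and 18.2 and 18.0 CPM in cKO. The WT libraries were the less alike, and the log2 fold change was 0.32 (SE 0.08, edgeR adjusted p = 0.0332). Mrpl51 (gene number 66493, chromosome 6, 125192200 to 125194392), another protein specific to mitochondria, measured 17.3 and 18.3 CPM in WT and 22.0 and 21.4 CPM in cKO, a log2 fold change of 0.28 (SE 0.07, edgeR adjusted p = 0.0344).

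Mrpl18 encodes a protein of the central protuberance whose bacterial counterpart binds ribosomal RNA there. It measured 40.7 and 41.9 CPM in WT and 48.0 and 47.0 CPM in cKO, a log2 fold change of 0.20 (SE 0.05, edgeR adjusted p = 0.0347), the smallest size among the called members. Mrpl48, also of the central protuberance, measured 18.4 and 18.9 CPM in WT and 22.7 and 22.1 CPM in cKO, a log2 fold change of 0.26 (SE 0.07, edgeR adjusted p = 0.0359). Both cKO libraries exceeded both WT libraries for either gene.

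Mrpl12 forms the flexible part of the stalk, which contacts translation factors, and its protein also binds the mitochondrial RNA polymerase. Mrpl12 (gene number 56282, chromosome 11, 120484637 to 120488754) measured 36.5 and 38.1 CPM in WT and 42.0 and 44.1 CPM in cKO, a log2 fold change of 0.21 (SE 0.06, edgeR adjusted p = 0.0429). The call ended with RLE scaling and without the filter on low counts. Mrpl22 lines the exit tunnel and measured 12.3 and 13.0 CPM in WT and 15.6 and 15.4 CPM in cKO, a log2 fold change of 0.30 (SE 0.08, edgeR adjusted p = 0.0406). The other large subunit genes that rose were Mrpl34, Mrpl36 and Mrpl50, with log2 fold changes of 0.31, 0.26 and 0.27 and edgeR adjusted p of 0.0395, 0.0474 and 0.0423. The call of Mrpl36 ended with RLE scaling, and that of Mrpl18 without the filter.

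Among genes named for the small subunit, Mrps36 had the largest change of all members and is the one whose product is not part of the ribosome. Mrps36 (gene number 66128, chromosome 13, 100735940 to 100744659) measured 11.8 and 12.2 CPM in WT and 16.0 and 14.9 CPM in cKO, a log2 fold change of 0.36 (SE 0.09, edgeR adjusted p = 0.0244). Mrps21 (gene number 66292, chromosome 3, 95862634 to 95871514), with a bacterial counterpart, measured 22.9 and 24.8 CPM in WT and 29.0 and 30.1 CPM in cKO, a log2 fold change of 0.31 (SE 0.07, edgeR adjusted p = 0.0238). Mrps21 and Mrpl42 kept their call without WT 2, the only members to keep it in any fit without 1 library.

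Mrps17 and Mrps10, both with bacterial counterparts in the body and head of the small subunit, also rose. Mrps17 measured 25.7 and 27.8 CPM in WT and 31.4 and 32.2 CPM in cKO, a log2 fold change of 0.25 (SE 0.07, edgeR adjusted p = 0.0398). Mrps10 measured 12.9 and 13.0 CPM in WT and 16.0 and 15.4 CPM in cKO, a log2 fold change of 0.28 (SE 0.08, edgeR adjusted p = 0.0450), and its call ended with RLE scaling and without the filter. Just past the threshold lay Mrps5 at 36.3 and 37.3 CPM in WT and 41.9 and 41.6 CPM in cKO (log2 fold change 0.18, edgeR adjusted p = 0.0506) and Mrps26 at a log2 fold change of 0.20 (edgeR adjusted p = 0.0534). Mrps5, Mrps26, Mrps10 and Mrpl36 were named after their values were seen.

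**Figure D4:**
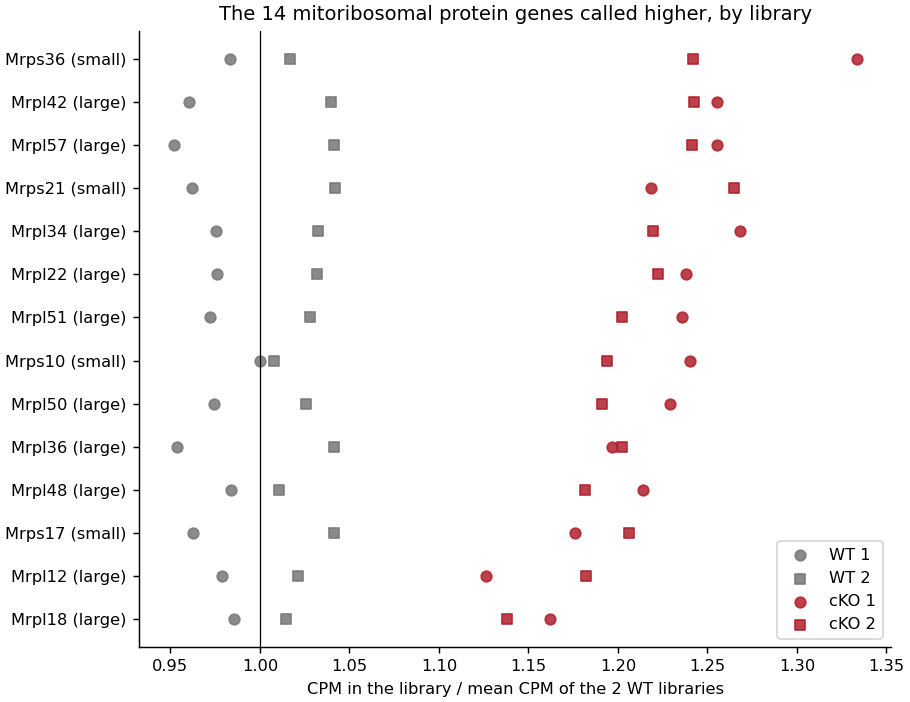
Level in each library divided by the mean of the WT libraries (x axis, ratio of CPM) for the 14 members called higher (y axis, sorted by size). Grey marks are WT 1 and WT 2, red marks cKO 1 and cKO 2. In all 14 the red marks lie right of the grey ones, and WT 1 is the lowest library.

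The 3 genes named Mrps18 are paralogs whose products sit at different places in the ribosome. Mrps18a, of the large subunit, measured 15.0 and 19.1 CPM in WT and 17.1 and 15.6 CPM in cKO (log2 fold change -0.06, 95% interval -0.39 to 0.27), so that the WT libraries enclosed both cKO libraries. Mrps18b, of the small subunit, measured 12.9 and 12.8 CPM in WT and 15.2 and 15.0 CPM in cKO, without overlap, a log2 fold change of 0.23 (95% interval 0.04 to 0.43, edgeR adjusted p = 0.0752). Mrps18c, which takes the place of the bacterial protein in the small subunit, measured 22.2 and 22.6 CPM in WT and 23.2 and 22.3 CPM in cKO (log2 fold change 0.02, 95% interval -0.14 to 0.19). None of the 3 passed, and reads of paralogs could be shared between them, since the treatment of reads with several matches is not given in the sources used here.

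The remaining members fixed for their roles did not pass either. Mrps30, of the large subunit in spite of its name, measured 38.0 and 37.4 CPM in WT and 40.3 and 39.3 CPM in cKO (log2 fold change 0.08, 95% interval -0.06 to 0.21). Mrpl58, a large subunit protein that also acts as a peptidyl-tRNA hydrolase in ribosome rescue, measured 25.2 and 28.2 CPM in WT and 29.0 and 24.4 CPM in cKO (log2 fold change -0.004, 95% interval -0.27 to 0.26). The spread within either group was larger than the difference between them.

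For many members the libraries of a group differed more than the groups. The gap between the libraries of WT or of cKO exceeded the log2 fold change in 37 of 78 members. In 48 members WT 2 lay above WT 1 and cKO 1 above cKO 2, and in 7 the reverse. The same counts over all genes are not given, so neither pattern is shown to be particular to the members. Mrps6, a small subunit gene named here after its values were seen, measured 12.4 and 17.7 CPM in WT and 16.1 and 13.8 CPM in cKO. Its log2 fold change was -0.01 with a 95% interval of -0.46 to 0.44. The summed level of 8 erythroid markers (Klf1 at 0 in a library) was higher in the other pair of libraries, at 678 and 242 CPM in WT 1 and WT 2 and 182 and 524 CPM in cKO 1 and cKO 2. Its part in the values of the members was not tested.

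Many members share their upstream region with another gene. Among the 78, 30 have a gene of the table on the opposite strand whose annotated start lies head to head within 1000 bases (starts overlapping by up to 300 bases included), and 19 overlap a gene on the opposite strand. Whether counting used strand is not known, and reads of genes that overlap cannot be told apart. The members lie on 17 chromosomes and those called on 11.

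Head-to-head neighbours of called members went in different directions. Of 6 such neighbours 2 rose, 1 fell, 2 did not pass and 1, beside Mrps21, was not tested. Beside members that did not pass, 1 neighbour rose (Eme1, of Mrpl27), 1 fell (Pnpla7, of Mrpl41), 21 did not pass and 1 was not tested. Over all genes tested 31.6% were called in either direction. Mrpl57 and Ska3, a spindle gene of dividing cells, have starts that overlap by 63 bases, and Ska3 rose from 3.05 and 4.46 CPM to 7.80 and 8.08 CPM (log2 fold change 1.09, SE 0.20, edgeR adjusted p = 0.0116). Mrpl51 starts 100 bases from Ncapd2, a condensin gene of dividing cells, which rose from 84.7 and 96.6 CPM to 146 and 134 CPM (log2 fold change 0.62, SE 0.08, edgeR adjusted p = 0.00561). Both neighbours thus rose by more than the mitoribosomal gene beside them on the log2 scale.

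Mrpl34 starts 219 bases from Abhd8, a hydrolase gene, and the pair moved apart. Mrpl34 measured 12 and 12.7 CPM in WT and 15.6 and 15.0 CPM in cKO, while Abhd8 fell from 98.1 and 93.7 CPM to 60.0 and 63.7 CPM (log2 fold change -0.63, SE 0.06, edgeR adjusted p = 0.00363). Mrpl36 lies 21 bases from the complex I gene Ndufs6 (log2 fold change 0.07, SE 0.11) and Mrpl50 93 bases from Zfp189 (0.10, SE 0.27), and neither neighbour passed. Mrpl18 overlaps the chaperonin gene Tcp1, which rose by nearly the same log2 fold change (0.20, SE 0.05, edgeR adjusted p = 0.0233), and Mrpl48 overlaps Rab6a, which fell by 0.18 (SE 0.05, edgeR adjusted p = 0.0388). The calls of Tcp1 and Rab6a were lost in each fit without 1 library (edgeR adjusted p 0.0650 to 0.195), and that of Rab6a with upper-quartile scaling.

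The pair of a large and a small subunit gene, Mrpl46 and Mrps11, starts 42 bases apart on chromosome 7. Mrpl46, of the central protuberance, measured 16.6 and 17.0 CPM in WT and 13.5 and 14.7 CPM in cKO, the lowest fold change of all members (log2 fold change -0.25, 95% interval -0.46 to -0.04, edgeR adjusted p = 0.0713). Mrps11 measured 12.9 and 13.4 CPM in WT and 14.5 and 14.2 CPM in cKO (log2 fold change 0.13, 95% interval -0.07 to 0.33, edgeR adjusted p = 0.305). In both genes the groups did not overlap, in opposite directions, and neither passed. All neighbours were chosen for description with the values already known.

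**Figure D5:**
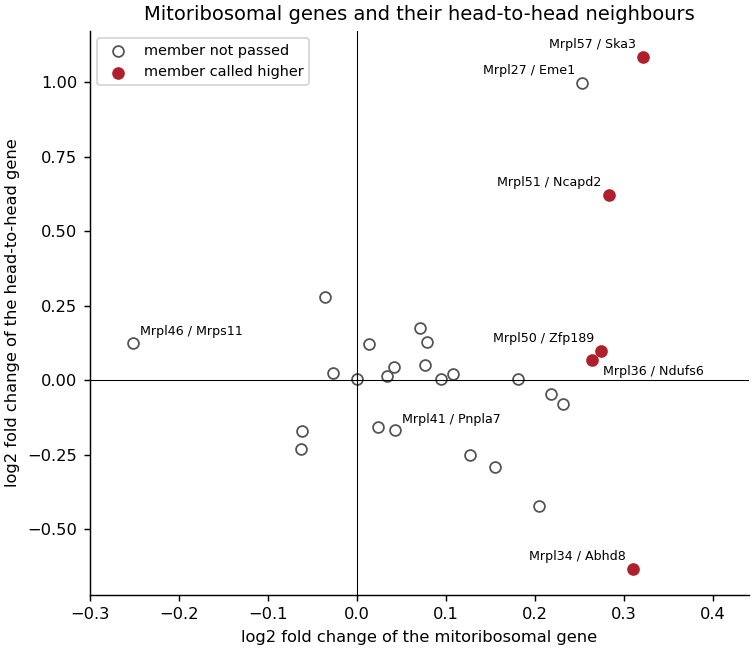
Log2 fold change of the mitoribosomal gene (x axis) against that of its head-to-head neighbour (y axis), cKO minus WT, one point a pair, for neighbours that were tested. Red points are members called higher. Ska3 and Ncapd2 lie above 0 at 1.09 and 0.62, Abhd8 below it at -0.63, and the points show both directions.

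The other genes of mitochondrial translation were counted in lists, to be read beside the 16.5% of all genes that rose and the 15.1% that fell. The shares that rose were 12.5% of the translation factors and 17.6% of the genes of mitochondrial DNA and RNA, both near that background. Of 5 mitoribosomal proteins with other symbols (Dap3, Aurkaip1, Chchd1, Ptcd3, Gadd45gip1) 0 rose and 0 fell (1 higher and 0 lower at an unadjusted p under 0.05 by edgeR and by limma-voom, 0 and 0 by DESeq2), with a median of 0.03. Ptcd3, of the small subunit, was nearest the threshold at 46.4 and 48.1 CPM in WT and 53.1 and 52.7 CPM in cKO (log2 fold change 0.16, edgeR adjusted p = 0.0590). Of 16 translation factors 2 rose and 0 fell, with a median of 0.04 (3 higher and 0 lower at an unadjusted p under 0.05 by edgeR and by limma-voom, 1 and 0 by DESeq2, which called none). Mrrf, which recycles the ribosome after release of the chain, measured 10.5 and 11.3 CPM in WT and 15.0 and 14.9 CPM in cKO, a log2 fold change of 0.45 (SE 0.09, edgeR adjusted p = 0.0133). Mtfmt, which formylates the initiator methionyl-tRNA, rose by 0.29 (SE 0.08, edgeR adjusted p = 0.0418).

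Among 20 tRNA synthetase and amidotransferase genes of mitochondria 1 rose and 1 fell, the valine enzyme Vars2 by 0.21 and the cysteine enzyme Cars2 by -0.23 on the log2 scale (edgeR adjusted p = 0.0413 and 0.0468). The Vars2 call ended with RLE scaling and without the filter, and the Cars2 call with upper-quartile scaling. Of 26 assembly factors 1 rose and 1 fell. Rbfa, a maturation factor of the small subunit, rose by 0.27 (SE 0.06, edgeR adjusted p = 0.0220), and Nsun4, a methyltransferase of the ribosomal RNA that helps join the subunits, had a log2 fold change of -0.38 (SE 0.09, edgeR adjusted p = 0.0270). Of 17 genes of mitochondrial DNA and RNA 3 rose and 0 fell (4 higher and 0 lower at an unadjusted p under 0.05 by edgeR and by limma-voom, 2 and 0 by DESeq2, which called none). These were Trmt10c (0.34) and Hsd17b10 (0.23), subunits of the enzyme that cuts tRNAs out of mitochondrial transcripts, and the single-strand binding protein gene Ssbp1 (0.29), with edgeR adjusted p of 0.0178, 0.0353 and 0.0252. Prorp, another subunit of that enzyme, did not pass (log2 fold change 0.07, edgeR adjusted p = 0.837). DESeq2 called none of the genes named in these pathway lists up to here. Without 1 library the calls of Mtfmt, Vars2, Cars2, Rbfa, Hsd17b10 and Ssbp1 were lost in each of the 4 fits, and those of Mrrf, Nsun4 and Trmt10c in 3 of 4.

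The 13 messenger RNAs that the mitochondrial ribosome translates showed no call by edgeR (1 higher and 1 lower at an unadjusted p under 0.05) or limma-voom (1 and 1), while DESeq2 called 0 higher and 1 lower. Their median log2 fold change was -0.03, and 5 of 13 lay above 0. Of 8 tested regulators of mitochondrial gene expression in the nucleus 1 rose and 1 fell, with a median of -0.07 and 3 above 0. At an unadjusted p under 0.05, edgeR and limma-voom gave 1 higher and 3 lower, and DESeq2, over 9 genes, 1 and 2. Myc rose from 102 and 117 CPM in WT to 179 and 171 CPM in cKO (log2 fold change 0.68, SE 0.08, edgeR adjusted p = 0.00509). Gabpb1, a partner of the ETS factor Gabpa, fell from 75.1 and 69.5 CPM to 58.0 and 59.3 CPM (log2 fold change -0.30, SE 0.06, edgeR adjusted p = 0.0138). The Myc call held in each fit without 1 library and the Gabpb1 call in 1 of 4. Gabpa, Nrf1 and Yy1 did not pass, with log2 fold changes of -0.07, -0.06 and -0.15.

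Set beside other genes of the translation and respiration machinery, the mitoribosomal genes had a like, slightly smaller median. Of 79 tested cytosolic ribosomal protein genes 19 rose and 2 fell with a median log2 fold change of 0.13, counted by edgeR alone. Of 77 tested nuclear genes of oxidative phosphorylation 12 rose and 0 fell by edgeR, with a median of 0.10. For the latter, edgeR gave 22 higher and 0 lower at an unadjusted p under 0.05, while DESeq2 called 4 and 0 and limma-voom 11 and 0. The shares that rose were 24.1% and 15.6%, beside 16.5% of all genes tested, of which 15.1% fell. The differences between these groups were not tested, and all of them rest on the same 4 libraries.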

How the data were processed

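The values are raw counts of reads per gene, as the authors deposited them in 1 table of 4 libraries. The submitters' processing notes name the build mm10. Aligner, counter, annotation and strand: not given in the sources used here. A filter on low counts (filterByExpr, at least 10 counts and 15 in total) left 13861 genes, which were compared with edgeR 4.0.16 in R 4.3.3 (TMM scaling, quasi-likelihood F-test, group alone, 2-sided, Benjamini-Hochberg adjustment over all genes tested, threshold 0.05). Each SE was derived from the fold change and the square root of its F value. CPM are TMM-scaled, and means are over n = 2 libraries a group. Intervals on fold changes are 95% intervals from the same fit, and limits set by a count of 0 cover counting error only. Exon lengths are merged exons of GENCODE vM21 transcripts matched to a RefSeq mRNA, and coordinates are RefSeq's for GRCm38.p6, matched by gene number for all 78 members. Alternatives were DESeq2 1.42.0, voom of limma 3.58.1, scaling by RLE or by upper quartile, no filter, 5 CPM in 2 libraries, the replicate number as a block and leaving out each library. Members and lists were chosen with earlier results of these data known. The cytosolic ribosomal and oxidative phosphorylation groups were set by symbol patterns after the files were read. Named members were those called (up to 12 with the smallest p), the 3 highest and 3 lowest per kilobase and 7 fixed for their roles. In the pathway lists up to 3 called genes a direction were named, and others named there were chosen after their values were seen.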

Additional observations from a re-analysis of the deposited data

How the results depend on the processing

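The count of members called higher fell from 14 to 0 with DESeq2 and to 0 with the replicate block, and ran from 0 to 2 when 1 library was left out, while RLE scaling and no filter gave 11 each and upper-quartile scaling and the filter of 5 CPM gave 16 each. The count called lower was 0 throughout, except for 1 at an adjusted p under 0.10 and 1 with a block of crossed replicate numbers. The share of all genes called higher was 16.5% in the main fit, 9.05% with DESeq2 and 8.30% with the replicate block. It was 15.4% with RLE scaling, 11.4% without the filter, 18.4% with upper-quartile scaling and 17.6% with the filter of 5 CPM. Over all genes the count of 4380 became 2876 with DESeq2, 2292 with the replicate block and 1869 to 2747 without 1 library. The deviations of same-numbered libraries from their group means correlated at -0.323 over genes. With 2 libraries a group, this single value cannot decide whether the numbers pair the libraries. A block that crosses them (WT 1 with cKO 2), added after the data were seen, called 6713 genes in either direction. It called 25.4% of all genes higher and 23.0% lower, and 21 of 78 members higher, near the share of all genes. The subunit medians stayed above 0 in every setting run, from 0.05 to 0.11 for the large and 0.08 to 0.15 for the small subunit. DESeq2 also uses another filter, and fits without 1 library have fewer samples. The cause of the lost calls was not tested. Members near 0 changed sign. Mrpl47 had -0.0046 with RLE scaling and -0.0048 with DESeq2, Mrpl58 0.024 with upper-quartile scaling, and Mrps6 0.016 with upper-quartile scaling, 0.011 with limma-voom and 0.0026 with the replicate block. Without 1 library the log2 fold changes ran from -0.20 to 0.26 for Mrpl47, -0.14 to 0.12 for Mrpl58, -0.25 to 0.26 for Mrps6, -0.23 to 0.12 for Mrps18a, -0.017 to 0.068 for Mrpl52, -0.0095 to 0.050 for Mrps18c and -0.012 to 0.097 for Mrpl24.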

Other observations

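The 13 messenger RNAs of the mitochondrial genome, which are cut from shared transcripts, were listed at very unequal levels per length. COX1 measured 8214 and 8042 CPM per kb in WT and 7679 and 7677 CPM per kb in cKO, whereas COX2, its neighbour on the same strand, measured 93.3 and 96.6 CPM per kb in WT and 107 and 106 CPM per kb in cKO. COX3 and ATP6 were as low, between 58.8 and 66.8 CPM per kb over the 4 libraries. ND1, ND2, ND4, ND5 and CYTB lay between 1004 and 3674 CPM per kb. The same order of magnitude held for each gene in every library, and the cause was not tested.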
